A study of Mus musculus with 21 samples.

Results

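The 9 imprinted genes H19, Igf2, Dlk1, Meg3, Peg3, Peg10, Mest, Grb10 and Cdkn1c, which act on growth, were followed through cultures of E14 mouse embryonic stem cells (ES cells, an established line of blastocyst origin that can form all tissues of the embryo). They were taken by name from a table of 78317 gene rows. Each of the 9 symbols had 1 row, and all 9 passed the filter on low counts. They were chosen by name with their measured levels in all 7 groups already in view. The tests below therefore come from a fit of all genes and are no independent support for the choice. The 21 RNA libraries formed 7 groups of 3. They were cells given pyridoxine, a vitamin B6 vitamer (VB6), at 20 µM for 3, 5 or 7 days, cells given vehicle for the same 3, 5 or 7 days, and cells in standard ES culture without either (ES). The stated interest of the series is in vitamin B6 as a promoter of endoderm, the germ layer of gut and liver. All groups are 1 cell line and no allele or transgene is named. The means of starting differentiation is not stated in the sources used here. Nothing says that libraries of 1 group were grown separately, so p-values measure the spread between these libraries, which may be technical.

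Imprinted genes are expressed mainly from the copy inherited from one parent, because an imprinting control region was methylated in only one of the parental germ lines. H19 and Igf2 share such a region and a set of enhancers downstream of H19. On the maternal copy CTCF binds the unmethylated region and leaves the enhancers to H19, a non-coding RNA, and on the paternal copy methylation lets them act on Igf2, a growth factor of the embryo. Both are abundant in the visceral endoderm and fetal liver of the mouse. Among the others, paternally expressed genes (Dlk1, Peg3, Peg10, Mest) tend to favour growth or placental function, and maternally expressed ones (Meg3, Cdkn1c and, in most tissues, Grb10) tend to restrain it. The tables give 1 level per gene for both parental copies together, so imprinting itself was not measured.

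ZFP57, a zinc finger protein that keeps imprints in the early embryo, recognises the hexamer TGCCGC when its CpG is methylated. RefSeq promoter windows (GRCm38.p6, 250 bases before to 50 after each start) were at hand for 6 of the 9 genes, Igf2, Dlk1, Meg3, Peg3, Mest and Grb10, with 13 windows in all. The hexamer, searched on both strands as TGCCGC and its reverse complement GCGGCA, was in 5 windows of 4 genes, and 2 of these 5 are overlapping Mest windows. Of all 32851 windows of the same length 11.6% held it. A single window is shown for each of the 4 genes that hold the hexamer. Each is written along the strand of the gene, and the capitals mark the hexamer, which in all of them lies on the opposite strand.
Igf2, chr7:142661222-142661521, minus strand: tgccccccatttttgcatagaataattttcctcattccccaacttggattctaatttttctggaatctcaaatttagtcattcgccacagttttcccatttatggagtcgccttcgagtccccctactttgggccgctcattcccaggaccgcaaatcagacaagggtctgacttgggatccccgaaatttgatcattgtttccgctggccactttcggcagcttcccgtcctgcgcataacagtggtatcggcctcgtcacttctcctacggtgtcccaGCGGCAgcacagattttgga
Meg3, chr12:109540746-109541045, plus strand: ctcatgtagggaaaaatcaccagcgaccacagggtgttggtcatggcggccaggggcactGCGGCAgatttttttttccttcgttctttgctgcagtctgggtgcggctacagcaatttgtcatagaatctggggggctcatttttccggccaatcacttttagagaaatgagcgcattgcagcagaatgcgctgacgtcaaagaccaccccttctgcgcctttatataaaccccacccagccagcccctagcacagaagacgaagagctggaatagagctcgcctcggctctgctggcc
Mest, chr6:30737800-30738099, plus strand: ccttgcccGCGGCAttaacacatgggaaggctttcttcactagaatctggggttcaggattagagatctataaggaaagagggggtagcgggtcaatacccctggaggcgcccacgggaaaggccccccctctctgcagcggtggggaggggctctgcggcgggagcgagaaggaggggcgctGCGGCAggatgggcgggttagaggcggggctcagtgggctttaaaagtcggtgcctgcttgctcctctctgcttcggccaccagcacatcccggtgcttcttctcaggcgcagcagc
Grb10, chr11:12037371-12037670, minus strand: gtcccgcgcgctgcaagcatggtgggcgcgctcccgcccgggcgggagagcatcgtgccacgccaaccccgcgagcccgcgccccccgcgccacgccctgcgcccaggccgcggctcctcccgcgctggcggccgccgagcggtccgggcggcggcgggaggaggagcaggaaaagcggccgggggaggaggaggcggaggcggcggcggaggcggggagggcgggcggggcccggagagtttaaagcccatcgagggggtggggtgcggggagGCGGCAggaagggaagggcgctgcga
The Mest window held the hexamer at 2 places and the other 3 windows at 1 each. CpG dinucleotides numbered 45 in the Grb10 window, more than in 98.1% of all windows, 17 in the Mest window, 14 in the Igf2 window and 13 in the Meg3 window, against a median of 7 over all windows. A match describes the letters of a window and shows no binding, and methylation was not measured.

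H19, Igf2, Mest and Meg3 also host a microRNA, a short RNA that silences messages matched by its seed (bases 2 to 8, in capitals). The labels speak of small RNA enrichment before adapter ligation, so the microRNAs of these hosts were looked for. Their mature sequences are given by RefSeq, build GRCm38.p6.
mmu-miR-675-5p, hosted by H19: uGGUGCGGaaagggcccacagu
mmu-miR-675-3p, hosted by H19: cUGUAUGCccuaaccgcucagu
mmu-miR-483-5p, hosted by Igf2: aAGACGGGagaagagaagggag
mmu-miR-335-5p, hosted by Mest: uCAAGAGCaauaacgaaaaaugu
mmu-miR-770-5p, hosted by Meg3: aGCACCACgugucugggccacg
The 8 mature arms of Mir675, Mir483, Mir335 and Mir770 carry 8 distinct seeds. Mir1906-1, which also lies within Meg3 on its strand, was not among the sequences used and likewise had 0 counts. The gene rows of Mir675, Mir483, Mir335 and Mir770 had 0 counts in all 21 libraries, while the host rows held 28353 (Mest) to 236787 (Meg3) counts in total. Of 2206 microRNA gene rows 2073 had 0 counts throughout, and all of them together held 295 counts. The tables therefore describe the long host transcripts, and levels of the microRNAs cannot be read from them.

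The libraries of vehicle day 5 and of VB6 day 7 stood apart. Their implied fragments, from the deposited values, averaged 267 ± 7.81 nt in VB6 day 7 and 228 ± 8.66 nt in vehicle day 5 (SD, n = 3), while the means of the other 5 groups lay at 308 to 313 nt. Mitochondrially encoded genes took 3.32 ± 0.271% of counts in VB6 day 7 and 4.33 ± 0.215% in vehicle day 5, where the other groups had means of 1.76 to 2.79%. These groups lie on opposite sides of the VB6 comparison at days 5 and 7, so there library properties and VB6 cannot be told apart. They also enter the steps in time to and from vehicle day 5 and to VB6 day 7. In those steps library properties and time cannot be told apart. Each difference was therefore fitted a second time after removing, library by library, the trend of counts with GC content and length. GC content was that of the longest transcript, and length was an effective length derived from the deposited values. For Meg3 the longest transcript had 14548 nt and the effective length was 1017 nt. A value from that second fit is called corrected below. GC content was 59.4% in the longest transcript of Cdkn1c, 55.8% in H19 and Igf2, 53.6% in Dlk1, and 46.8 to 49.2% in Meg3, Peg3, Peg10, Mest and Grb10, against a median gene at 49.6%. Total counts per library ran from 15882380 to 21629730.

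All 9 genes were higher at day 7 than at day 3 in both arms, where 36.1% of all genes were called higher in VB6 and 34.3% in vehicle. Levels between genes are compared as TPM (a length-scaled share of all transcripts), and levels between groups as CPM (counts scaled to library size with TMM factors). The summed TPM of the 9 genes averaged 475 ± 35.7 in ES cells (SD, n = 3). In the VB6 arm it was 689 ± 19.3, 2066 ± 52.9 and 5551 ± 196.1 TPM at days 3, 5 and 7, and in the vehicle arm 699.9 ± 20.8, 1805 ± 88.8 and 3857 ± 115 TPM. The order of the genes changed on the way. In ES cells Meg3 was the most abundant at 220 ± 10.8 TPM and Dlk1 the least at 2.08 ± 0.957 TPM, and Igf2 stood at 3.61 ± 0.208 TPM. At day 7 Meg3 still led, at 1561 ± 239 TPM with VB6 and 1277 ± 58.8 TPM with vehicle. H19 followed at 1312 ± 78.8 TPM with VB6 and 902 ± 38.5 TPM with vehicle, and Igf2 came next at 1029 ± 119 TPM with VB6 and 656 ± 66.6 TPM with vehicle. These values order the genes within a group. Relative to CPM, TPM and its sums are shifted between the arms at day 7, by 0.19 (log2) for the median gene. In CPM, mean H19 was 1309 with VB6 and 1237 with vehicle, and mean Meg3 was 945 and 985, neither called as different. Ranked by mean TPM among all genes, Igf2 was at place 139 in VB6 day 7 and 215 in vehicle day 7, against 11491 in ES cells.

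**Figure D1:**
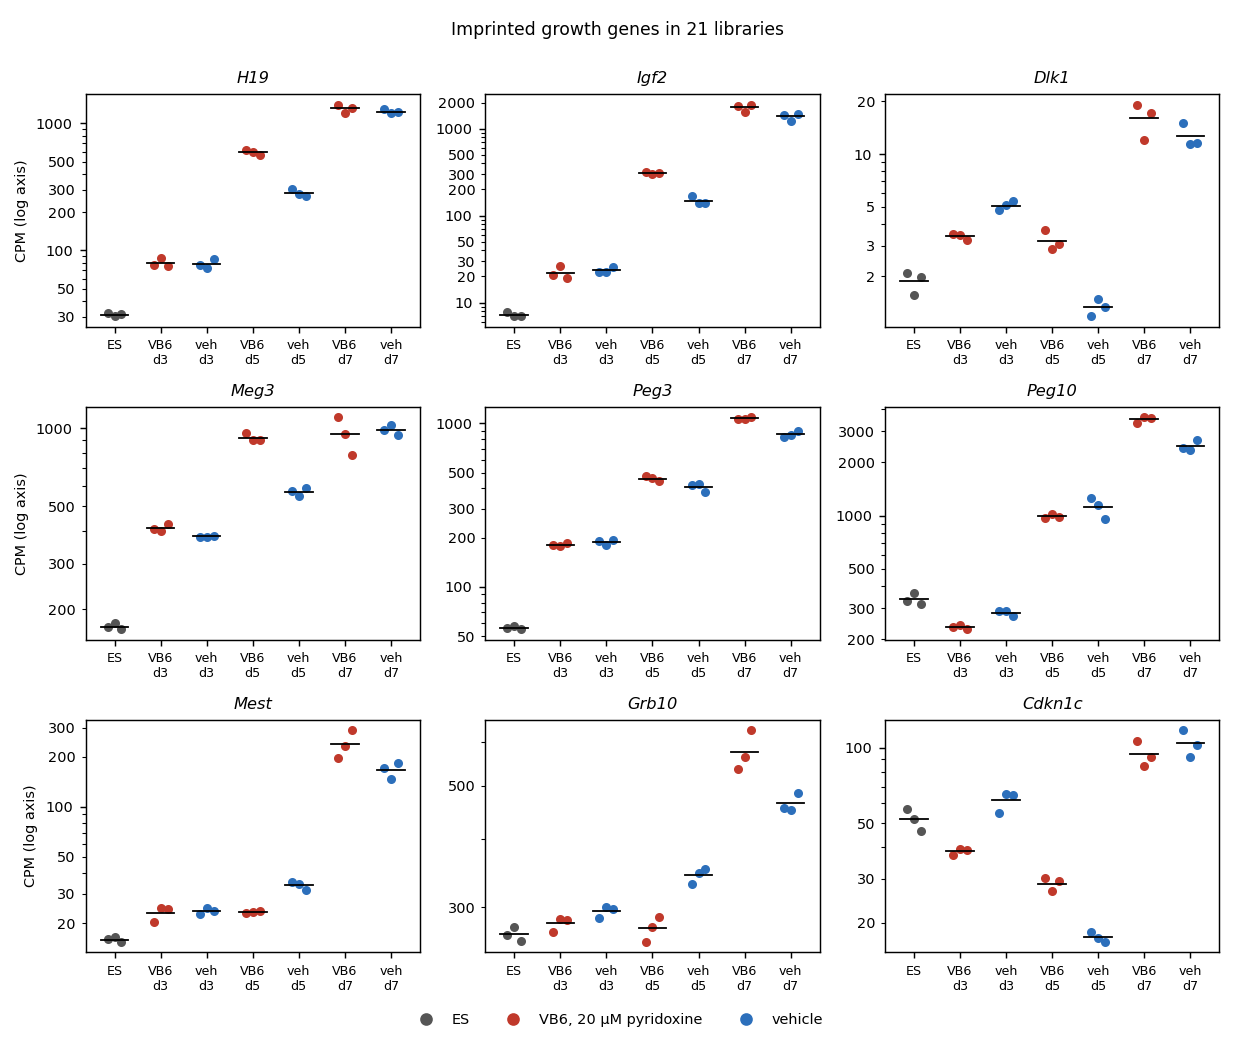
CPM on a log axis for each of the 9 genes in every library, with a bar at the mean of each group of 3 (ES cells in grey, 20 µM pyridoxine in red, vehicle in blue; d marks the day). All 9 genes have their highest group means at day 7. Dlk1 and Cdkn1c dip at day 5 with vehicle, to means of 1.34 and 17.5 CPM. With VB6, Cdkn1c also falls from day 3 to day 5, from a mean of 38.6 to 28.7 CPM.

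With vehicle, 8 of the 9 genes were higher and 1, Peg10, lower at day 3 than in ES cells. Of the 18901 genes tested 64.9% were called there, 33.1% higher and 31.8% lower, by edgeR's quasi-likelihood test with Benjamini-Hochberg adjustment at 0.05. Of the 8 higher genes Grb10 was not called after correction (log2 fold change 0.14 uncorrected and -0.06 corrected, adjusted p = 0.268). The calls of Grb10 and Cdkn1c were each lost without any 1 of 4 of the 6 libraries, at adjusted p-values of 0.0583 to 0.0953 for Grb10 and 0.0557 to 0.145 for Cdkn1c. At vehicle day 5, 7 were higher and 2, Dlk1 and Cdkn1c, lower than at day 3 (65.3% of genes called, 31.9% higher and 33.4% lower). At vehicle day 7 all 9 were higher than at day 5 (66.3% called, 35.2% higher and 31.1% lower). Vehicle day 7 against day 3 had 67.4% of genes called, 34.3% higher and 33.1% lower, and the median log2 fold change of the 9 was 2.20, beside -0.01 over all genes. The changes were 5.87 in Igf2, 3.98 in H19, 3.13 in Peg10, 2.82 in Mest, 2.20 in Peg3, 1.37 in Meg3, 1.32 in Dlk1, 0.76 in Cdkn1c and 0.65 in Grb10.

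With VB6, 6 of the 9 were higher and 2, Peg10 and Cdkn1c, lower at day 3 than in ES cells (65.3% called, 33.2% higher and 32.1% lower). The Cdkn1c call there was lost on correction (log2 fold change -0.43 uncorrected and -0.10 corrected, adjusted p = 0.271), while Grb10 was called lower when corrected (-0.11, adjusted p = 0.0398). At VB6 day 5, 5 were higher and 1, Cdkn1c, lower than at day 3 (56.2% called, 29.9% higher and 26.4% lower). Grb10 was called lower there too when corrected (-0.22, adjusted p = 0.000138, edgeR). In the step from VB6 day 5 to day 7, 8 were higher (54.5% called, 27.3% higher and 27.3% lower). VB6 day 7 against day 3 had 70.9% of genes called, 36.1% higher and 34.8% lower, and the median of the 9 was 2.57. A call alone says little where most genes moved in time. These comparisons share groups with one another and with those of VB6 against vehicle. For those that use neither group with short fragments, each count of the 9 was the same when these groups were left out of the fit.

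Markers of some cell types moved along with the 9 genes and others did not. The summed TPM of 8 visceral endoderm markers, which include Afp, Ttr and Apob, ran from 3295 to 4246 in VB6 day 7 and 2781 to 2966 in vehicle day 7, against 16.6 to 20.2 in ES cells, where Afp was at 0. At day 5 it was 1132 to 1254 with VB6 and 674 to 866 with vehicle, and at day 3, 103 to 116 with VB6 and 99.7 to 118 with vehicle. On the CPM scale of the fit, however, 3 of these 8 markers were called higher and 3 lower with VB6 at day 7, with a median log2 fold change of -0.17. At day 5, 6 were called higher and none lower, with a median of 1.39. Over all genes 18.6% were called higher and 17.9% lower at day 7, and 31.2% higher and 25.5% lower at day 5. The 7 pluripotency markers ran the other way in time, from sums of 9490 to 10910 TPM in ES cells, where all 7 were detected. At day 7 these sums were 464 to 538 TPM with VB6 and 709 to 728 TPM with vehicle. The arms stood the other way at day 5, with 1406 to 1543 TPM for VB6 and 1244 to 1306 TPM for vehicle. On the CPM scale 5 were called higher and 2 lower with VB6 at day 5, and none higher and 3 lower at day 7. Sums of 8 trophoblast markers were 44.6 to 59.2 TPM in VB6 day 7, 24.4 to 35.0 TPM in vehicle day 7 and 21.7 to 28.4 TPM in ES cells, with values of 2.19 to 3.38 TPM in VB6 day 3 and 2.83 to 3.79 TPM in vehicle day 3 between them. Prl3d1, a hormone of trophoblast giant cells, was at 0 in all groups. Sums of 8 fibroblast markers were 163 to 255 TPM in VB6 day 7 and 117 to 166 TPM in vehicle day 7, against 26.0 to 33.9 TPM in ES cells. Sums of 6 muscle markers were 56.2 to 83.6 TPM in VB6 day 5 and 26.4 to 32.0 TPM in vehicle day 5, and 95.5 to 106.6 TPM in VB6 day 7 and 84.1 to 102 TPM in vehicle day 7, against 2.27 to 2.50 TPM in ES cells. Sums of 8 mesoderm markers were 30.4 to 38.7 TPM in VB6 day 7 and 24.3 to 30.1 TPM in vehicle day 7. Those sums were below the 50.9 to 58.3 TPM of ES cells but above day 3. The day 3 sums were 9.88 to 11.8 TPM with VB6 and 13.6 to 15.7 TPM with vehicle. Sums of 6 neural markers were 29.7 to 37.9 TPM in VB6 day 7 and 35.8 to 40.8 TPM in vehicle day 7, against 26.8 to 34.6 TPM in ES cells. On the CPM scale none of 4 tested trophoblast and 5 tested muscle markers was called between the arms at day 7. Of 7 tested fibroblast markers 2 were called higher and 1 lower with VB6, and of 7 mesoderm markers 2 higher and none lower. Among 5 tested neural markers none was called higher and 3 lower. For muscle markers at day 5, 2 were called higher and none lower. The part of these cell types in the levels of the 9 genes was not tested, and in bulk RNA more cells of a type and more RNA per cell cannot be told apart.

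Between VB6 and vehicle, the 9 genes gave a different picture at each day. At day 3 Peg10 and Cdkn1c were called, both lower with VB6, so 2 of 9 where 4.25% of all genes were called, 1.48% higher and 2.77% lower. At day 5 all 9 were called, 6 higher and 3 lower, where 56.7% of all genes were called, 31.2% higher and 25.5% lower. Of the 9, 5 were called at day 7, all higher, where 36.5% of all genes were called, 18.6% higher and 17.9% lower. The median log2 fold change over the 9 genes was -0.08, 0.70 and 0.32 at days 3, 5 and 7, beside -0.01, 0.05 and 0.02 over all genes. The libraries of the arms did not overlap in 5, 8 and 5 of the 9 genes at days 3, 5 and 7, where 29.1%, 63.5% and 45.3% of all genes did not overlap.

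After correction 3, 7 and 7 of the 9 genes were called at days 3, 5 and 7, where 7.27%, 38.4% and 27.2% of 16790 genes were called. Called with the same sign in both fits were Peg10 and Cdkn1c at day 3, both lower with VB6. At day 5 these were H19, Igf2, Dlk1, Meg3 and Peg3, all higher, and Mest and Grb10, both lower. At day 7 they were Igf2, Peg10, Mest and Grb10, all higher. Igf2 was the only gene of the 9 that was called higher with VB6 at both day 5 and day 7 in both fits. A direct test of whether the VB6 difference changed between the days passed for all 9 genes, where it passed for 60% of all genes, and for 45% after correction. Relative to CPM, the deposited TPM shifted the median gene by -0.13 at day 5 and by 0.19 at day 7 on the log2 scale.

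**Figure D2:**
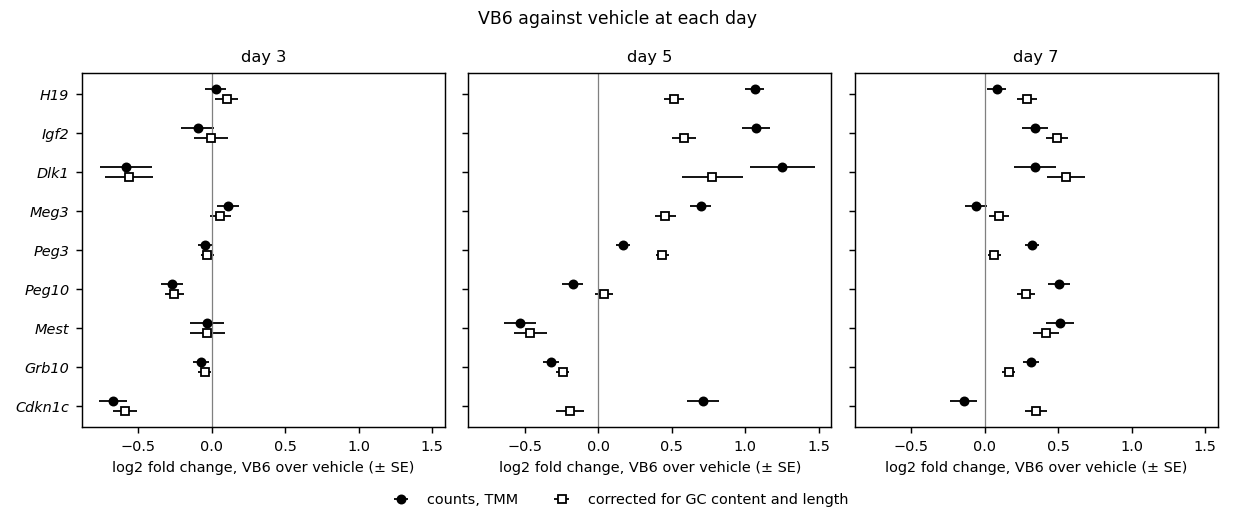
Log2 fold change of VB6 over vehicle for each of the 9 genes at days 3, 5 and 7, with its SE, from the counts with TMM (filled circles) and after correction for GC content and length (open squares). At day 5 the squares of H19, Igf2, Dlk1, Meg3 and Cdkn1c lie left of their circles, and that of Cdkn1c is at -0.19, across 0 from its circle at 0.71.

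H19 (ENSMUSG00000000031) is a lincRNA gene at chromosome 7, 142575529 to 142578143, minus strand (mm10, GENCODE M21). Igf2 (ENSMUSG00000048583) lies on the same strand at 142650766 to 142666816. H19 had 31.9, 30.3 and 31.3 CPM in the ES libraries. It then had 77.0, 87.2 and 74.7 CPM with VB6 and 76.5, 72.9 and 85.2 CPM with vehicle at day 3. The arms overlapped at day 3, and each stood above every ES library. At day 5 H19 had 618, 597 and 568 CPM with VB6, against 306, 278 and 269 CPM with vehicle. At day 7 it had 1404, 1204 and 1319 CPM with VB6, against 1287, 1202 and 1221 CPM with vehicle. The VB6 libraries were thus all higher at day 5, and the arms overlapped again at day 7. The log2 fold change of VB6 over vehicle was 0.03 ± 0.07 at day 3, 1.06 ± 0.07 at day 5 and 0.08 ± 0.07 at day 7 (SE). The edgeR test called the day 5 difference (adjusted p = 1.92e-11) and neither of the others (0.885 and 0.359). After correction the differences were 0.10 ± 0.08, 0.51 ± 0.07 and 0.29 ± 0.07, of which those at day 5 (adjusted p = 1.84e-06) and day 7 (0.00231) passed.

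Igf2 had 7.89, 6.99 and 7.02 CPM in ES libraries. At day 3 it had 20.7, 26.1 and 19.4 CPM with VB6, against 22.4, 22.4 and 25.9 CPM with vehicle. At day 5 it had 322, 304 and 312 CPM with VB6, against 168, 139 and 138 CPM with vehicle. The arms overlapped at day 3 and not at day 5. At day 7 Igf2 had 1810, 1565 and 1892 CPM with VB6, against 1434, 1222 and 1492 CPM with vehicle, and the lowest VB6 library was above the highest vehicle library. Over vehicle, the VB6 log2 fold change was -0.10 ± 0.11 at day 3, 1.07 ± 0.09 at day 5 and 0.34 ± 0.09 at day 7, and the adjusted p-values were 0.687, 1.7e-09 and 0.00381. Corrected, it was 0.58 ± 0.08 at day 5 and 0.49 ± 0.08 at day 7, and both passed. Between day 3 and day 7 Igf2 had the largest log2 change of the 9 genes, 6.31 ± 0.12 with VB6 and 5.87 ± 0.12 with vehicle, and H19 changed by 4.04 ± 0.08 with VB6 and 3.98 ± 0.08 with vehicle.

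The balance of the pair shifted over the days. The TPM of H19 divided by that of Igf2 was 6.19 ± 0.204 in ES libraries. At day 3 it was 5.91 ± 1.42 with VB6 and 5.34 ± 0.682 with vehicle, at day 5 it was 3.01 ± 0.174 with VB6 and 3.50 ± 0.219 with vehicle, and at day 7 it was 1.28 ± 0.105 with VB6 and 1.38 ± 0.117 with vehicle. All 6 day 7 libraries lay between 1.17 and 1.502, below every day 5 library. At day 5 the VB6 ratios, 2.85 to 3.19, lay below the vehicle ratios, 3.27 to 3.71. On the CPM scale, however, the VB6 log2 fold changes at day 5 were alike, 1.06 ± 0.07 for H19 and 1.07 ± 0.09 for Igf2. The gap between the arms thus rests on the TPM scale. At day 7 the arms overlapped, with 1.17 to 1.37 for VB6 and 1.27 to 1.502 for vehicle. Over the 21 libraries the log2 CPM of H19 and Igf2 had a Pearson correlation of 0.996, and each was the gene most like the other among 13164 genes compared. The next most like H19 was Gnas, another imprinted gene, which encodes the stimulatory G protein subunit, at 0.9956. The libraries share day groups and depth, so these values describe parallel courses and no more.

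**Figure D3:**
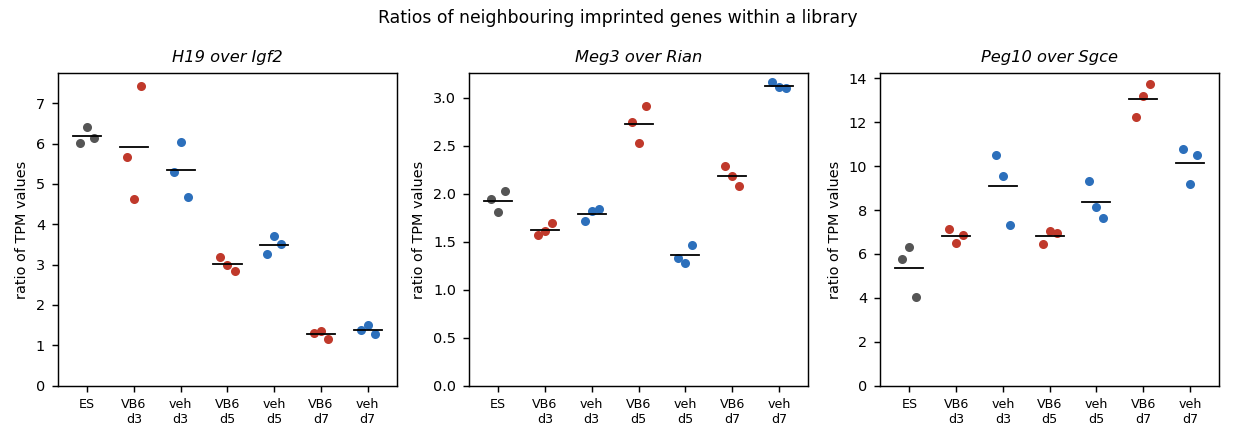
Ratio of TPM values of 2 neighbouring imprinted genes in each library, with a bar at the group mean (ES in grey, VB6 in red, vehicle in blue). The ratio of H19 to Igf2 steps down over the days, to means of 1.28 with VB6 and 1.38 with vehicle at day 7, against 6.19 in ES cells, while the ratios of Meg3 to Rian and Peg10 to Sgce show no single course.

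Neighbours of the pair on chromosome 7 also moved with time. Of 6 listed neighbours 5 were tested, and all 5 were higher in vehicle at day 7 than at day 3, with a median log2 fold change of 3.79, where the median over all genes was -0.01 and 34.3% of genes were called higher. Igf2os, the antisense transcript of Igf2, had a log2 fold change of 3.79, Lsp1, a leukocyte actin-binding protein, 4.22, and Tnnt3, a fast muscle troponin, 4.57. Ctsd, a lysosomal protease, and Mrpl23, a protein of the mitochondrial ribosome, moved less, by 0.50 and 0.36. Igf2os overlaps Igf2 on the opposite strand over 7124 bases and held 4161 counts in all, against 194993 for Igf2. Gm49394, a gene model on the same strand, overlaps it over 16048 bases and held 506 counts. The strand setting of the counting is not stated in the sources used here, so reads of the overlap cannot be told apart. The levels of Lsp1 and Tnnt3 were far lower than those of the pair, at 8.40 and 3.41 TPM in vehicle day 7.

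A list of insulin-like growth factor genes held receptors and adaptors, but also binding proteins of the growth factors and RNA-binding proteins. Of its 17 genes 16 were tested. At vehicle day 7, 14 were higher and none lower than at day 3, where 34.3% of all genes were called higher and 33.1% lower. Corrected, 14 were higher and 1 lower. Irs1 and Irs2, adaptors that carry the receptor signal inward, had log2 fold changes of 3.85 and 2.46. Igf1r, the receptor through which Igf2 signals, averaged 21.8 TPM at VB6 day 7 and 17.3 TPM at vehicle day 7, against 5.64 TPM in ES cells, and its log2 fold change in vehicle, day 7 over day 3, was 0.88. Igf2r, the imprinted receptor that clears Igf2 from the cell surface, reached 65.6 TPM at VB6 day 7 and 45.1 TPM at vehicle day 7. Since TPM is shifted between the arms at day 7, these gaps of both receptors are not read as VB6 differences. The TPM of Igf2 divided by that of Igf2r was 15.7 ± 1.91 at VB6 day 7 and 14.5 ± 1.20 at vehicle day 7, against 0.155 ± 0.0188 in ES cells. With VB6 against vehicle, 6 of the 16 tested genes of this list were higher and 2 lower at day 5, and 5 higher and 4 lower at day 7. Over all genes the shares were 31.2% higher and 25.5% lower at day 5, and 18.6% higher and 17.9% lower at day 7.

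Grb10 (chromosome 11, 11930508 to 12038683, minus strand) encodes an adaptor that damps signalling by the insulin and insulin-like growth factor receptors. Of the 9 genes it changed least between days 3 and 7. It had 266, 276 and 260 CPM in ES libraries, and at day 3 it had 269.6, 286 and 285 CPM with VB6, against 287, 301 and 298 CPM with vehicle. By day 5 it had 259, 276 and 288 CPM with VB6, against 331, 347 and 353 CPM with vehicle, so all VB6 libraries were lower. By day 7 it had 537, 564 and 631 CPM with VB6, against 456, 452 and 484 CPM with vehicle, and all VB6 libraries were higher. The VB6 log2 fold change was -0.32 ± 0.06 at day 5 (adjusted p = 3.06e-05, edgeR) and 0.32 ± 0.06 at day 7 (0.000101). Both passed after correction, at -0.24 ± 0.05 and 0.16 ± 0.04. In vehicle the step to day 5 was 0.22 ± 0.06 and called, but -0.03 ± 0.05 and not called when corrected.

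Cdkn1c (chromosome 7, 143458339 to 143461050, minus strand) encodes p57, which blocks cyclin-dependent kinases and so holds cells in G1. It had 57.1, 52.1 and 46.5 CPM in ES libraries. At day 3 it had 37.3, 39.3 and 39.2 CPM with VB6, against 54.9, 65.4 and 64.7 CPM with vehicle. Every VB6 library was lower, and the log2 fold change of -0.68 ± 0.10 (adjusted p = 0.000327, edgeR) held after correction at -0.59 ± 0.08 (6.26e-05). At day 5 the arms stood the other way, at 30.1, 26.7 and 29.3 CPM with VB6 and 18.4, 17.3 and 16.8 CPM with vehicle. That difference depended on the processing: the log2 fold change was 0.71 ± 0.11 (adjusted p = 6.03e-06) uncorrected and -0.19 ± 0.10 (0.115) corrected. At day 7 Cdkn1c had 106.9, 84.2 and 91.5 CPM with VB6, against 117, 91.8 and 103 CPM with vehicle, which overlapped, and its log2 fold change of -0.14 ± 0.09 was not called but was 0.35 ± 0.08 and called when corrected. Cdkn1c was lower at day 5 than at day 3, by an amount that changed with the processing. In vehicle the log2 fold change was -1.82 ± 0.11, and -1.10 ± 0.09 corrected, and in VB6 it was -0.43 ± 0.10, and -0.70 ± 0.09 corrected, all called. On the log2(TPM + 1) scale Cdkn1c had -0.97 in vehicle, which was called, and -0.07 in VB6, which was not (adjusted p = 0.672, limma). Of 6 other kinase inhibitors, 4 were called higher in vehicle at day 7 than at day 3, where 34.3% of all genes were, among them Cdkn1a, which encodes p21, with a log2 fold change of 2.28.

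Dlk1 and Meg3 share an imprinted cluster on chromosome 12. Dlk1 (109452823 to 109463336, plus strand) encodes a transmembrane protein related to Notch ligands, and Meg3 (109541001 to 109571726, plus strand) a lincRNA. Dlk1 had the fewest counts of the 9 genes, 22 to 321 per library. It had 2.09, 1.57 and 1.99 CPM in ES libraries. At day 3 it had 3.50, 3.46 and 3.21 CPM with VB6, against 4.76, 5.11 and 5.36 CPM with vehicle. At day 5 the values were 3.69, 2.88 and 3.06 CPM with VB6, against 1.19, 1.495 and 1.34 CPM with vehicle. The VB6 libraries were all lower at day 3 and all higher at day 5. The log2 fold change was -0.58 ± 0.18 at day 3, where the adjusted p was 0.0619 and 0.0364 corrected. At day 5 it was 1.25 ± 0.22 (adjusted p = 3.57e-05) and 0.78 ± 0.21 corrected (0.00455). With vehicle Dlk1 fell between days 3 and 5, by a log2 fold change of -1.92 ± 0.21 and of -1.57 ± 0.20 corrected, while with VB6 it had -0.08 ± 0.19, which was not called. At day 7 Dlk1 had 19.1, 12.1 and 17.0 CPM with VB6, against 15.1, 11.5 and 11.5 CPM with vehicle. These overlapped, and the difference of 0.34 ± 0.14 was not called uncorrected (adjusted p = 0.0674), but was called at 0.55 ± 0.13 corrected (0.00211), and also uncorrected without vehicle replicate 1 (0.021) or VB6 replicate 2 (0.00636).

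Meg3 had 170.4, 176 and 168 CPM in ES libraries. At day 3 it had 409, 400.1 and 428 CPM with VB6, against 381, 381 and 383 CPM with vehicle, which did not overlap, though the log2 fold change of 0.11 ± 0.07 was not called (adjusted p = 0.428). On day 5 it had 960.3, 900.3 and 896 CPM with VB6, against 570.1, 546 and 585 CPM with vehicle. All VB6 libraries were higher, by a log2 fold change of 0.70 ± 0.07 (adjusted p = 3.34e-08) and 0.46 ± 0.07 corrected. At day 7 the values were 1098, 948 and 789 CPM with VB6, against 982, 1031 and 942 CPM with vehicle. The VB6 libraries spanned the vehicle ones, and no difference was called, at -0.06 ± 0.07 uncorrected and 0.10 ± 0.07 corrected, although it was called lower without VB6 replicate 1 (adjusted p = 0.0321). Between days 5 and 7 Meg3 had a log2 fold change of 0.04 ± 0.07 in VB6 (adjusted p = 0.672), which was 0.21 ± 0.07 and called when corrected and was also called without VB6 day 7 replicate 3 (0.0317), and of 0.80 ± 0.07 in vehicle.

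Rian and Mirg are long RNAs transcribed downstream of Meg3 from the same strand. Rian averaged 711 TPM at VB6 day 7 and 409 TPM at vehicle day 7, against 114 TPM in ES cells. Its VB6 log2 fold change was 0.32 at day 3, -0.51 at day 5 and 0.55 at day 7, each called. The day 5 value of Rian turned to 0.28 when corrected, so its direction rests on the processing. The TPM of Meg3 divided by that of Rian was 2.73 ± 0.193 for VB6 and 1.36 ± 0.0949 for vehicle at day 5, and 2.19 ± 0.103 for VB6 and 3.12 ± 0.0332 for vehicle at day 7, on values not corrected for GC content. The vehicle day 5 and VB6 day 7 groups, which had short fragments, each had the lower ratio of their day. Rtl1, a retrotransposon-derived gene that is needed in the placenta, lies downstream of Meg3 on the other strand. It stayed at 0.237 to 1.61 TPM in the group means.

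Peg3, Peg10 and Mest are expressed from the paternal copy. Peg3 (chromosome 7, 6703892 to 6730431, minus strand) encodes a zinc finger protein that acts on growth and maternal behaviour in mice. It had 55.9, 57.6 and 55.3 CPM in ES libraries, and at day 3 it had 181, 178 and 185 CPM with VB6, against 190.1, 179 and 193 CPM with vehicle. At day 5 it had 474, 461 and 445 CPM with VB6, against 421, 425 and 380.4 CPM with vehicle. On day 7 it had 1066, 1068 and 1087 CPM with VB6, against 831, 854 and 897 CPM with vehicle. The arms overlapped at day 3, and the VB6 libraries were higher at days 5 and 7. The size of both differences changed with the processing. At day 5 the log2 fold change was 0.17 ± 0.05 and 0.44 ± 0.04 corrected, both called, while on the log2(TPM + 1) scale it was -0.12 and not called. At day 7 it was 0.32 ± 0.05 (adjusted p = 1.61e-05) and 0.07 ± 0.04 corrected (0.265). Zim1, a zinc finger gene beside Peg3, was higher with VB6 at day 7 in both fits, by 0.98 and 0.64 corrected, and averaged 13.02 TPM with VB6 and 5.69 TPM with vehicle.

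Peg10 (chromosome 6, 4747306 to 4760517, plus strand) derives from a retrotransposon and is needed for the mouse placenta. It was the only one of the 9 genes to be lower at day 3 than in ES cells in both arms and in both fits. It had 329, 366 and 319 CPM in ES libraries. At day 3 it had 234, 240.0 and 229 CPM with VB6, against 289.5, 289 and 270.1 CPM with vehicle. All VB6 libraries were lower, by a log2 of -0.27 ± 0.08 (adjusted p = 0.0419, edgeR), a call that was lost when any 1 of these 6 libraries was left out (adjusted p = 0.0659 to 0.169). At day 5 Peg10 had 973, 1025 and 987 CPM with VB6, against 1262, 1150 and 957 CPM with vehicle. These overlapped, and the log2 fold change was -0.18 ± 0.07 (adjusted p = 0.0476) and 0.04 ± 0.06 corrected (0.644). The call was lost without any 1 of 5 of these 6 libraries (adjusted p = 0.056 to 0.366). At day 7 it had 3357, 3594 and 3585 CPM with VB6, against 2402, 2339 and 2687 CPM with vehicle. All VB6 libraries were higher, by 0.50 ± 0.07 and by 0.28 ± 0.06 corrected, both called. Sgce, which lies head to head with Peg10 and encodes a sarcoglycan, climbed with it, by a log2 fold change of 2.94 in vehicle between days 3 and 7, where Peg10 climbed by 3.13 ± 0.08. Sgce had no called difference between the arms at day 7.

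Mest (chromosome 6, 30723547 to 30748465, plus strand) encodes a protein of the hydrolase fold found in embryonic mesoderm. It had 15.95, 16.4 and 15.4 CPM in ES libraries, and at day 3 it had 20.2, 24.6 and 24.3 CPM with VB6, against 22.6, 24.6 and 23.8 CPM with vehicle. By day 5 it had 23.1, 23.4 and 23.5 CPM with VB6, against 35.3, 34.2 and 31.8 CPM with vehicle, and all VB6 libraries were lower. By day 7 it had 197, 233 and 289 CPM with VB6, against 172, 148 and 183 CPM with vehicle, and all VB6 libraries were higher. Both differences passed in both fits, at -0.53 ± 0.11 and -0.46 ± 0.11 corrected at day 5, and 0.52 ± 0.10 and 0.42 ± 0.09 corrected at day 7. In VB6 no change of Mest was detected between days 3 and 5 (0.01 ± 0.12, adjusted p = 0.929), and at day 7 it was higher than at day 5 by 3.36 ± 0.11. Copg2 overlaps the end of Mest on the opposite strand over 912 bases, so some reads may belong to either. Mest and Grb10 were alike in their course, with a Pearson correlation of 0.980 over 21 libraries, and both were lower with VB6 at day 5 and higher at day 7.

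Each of the 9 genes was also matched to the genes whose log2 CPM followed it most closely over the 21 libraries, among 13164 genes. Meg3 was nearest to Ctsl, a lysosomal protease, at a Pearson correlation of 0.993, and to Krt18, a keratin of simple epithelia, at 0.990. Peg3 was nearest to Adamts1, a secreted metalloprotease, at 0.996, and Peg10 to Erlin2, a protein of the endoplasmic reticulum, at 0.990. Mest was nearest to Lix1 at 0.985, and Mllt3, a reader of acylated histones, was second for both Mest and Grb10, at 0.984 and 0.974. Dlk1 and Cdkn1c, the genes that dipped at day 5 with vehicle, were less closely matched, with Maged1 at 0.949 and Mxd4, a Max-binding repressor, at 0.949.

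**Figure D4:**
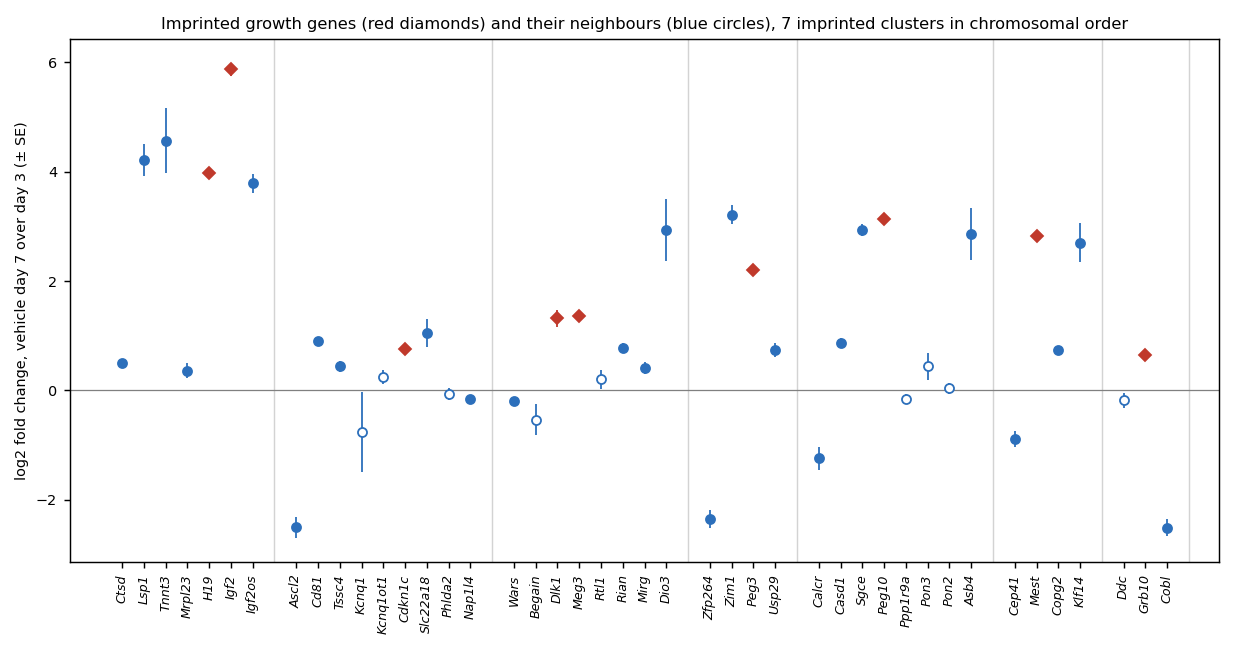
Log2 fold change of vehicle day 7 over vehicle day 3, with its SE, for the 9 genes (red diamonds) and tested neighbours from 7 imprinted clusters (blue circles), in chromosomal order within each cluster and with lines between clusters. Filled symbols were called and open ones not. The 9 genes range from 0.65 (Grb10) to 5.87 (Igf2), and neighbours lie on both sides of 0.

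Neighbours in the other clusters were mixed. Of all 57 other tested genes of imprinted regions, those around H19 and Igf2 included, 29 were higher and 11 lower at vehicle day 7 than at day 3, with a median log2 fold change of 0.44, where 34.3% of all genes were called higher and 33.1% lower. Within clusters there were opposite moves: beside Cdkn1c, Ascl2, a trophoblast transcription factor, had a log2 fold change of -2.50, and beside Grb10, Cobl, an actin nucleator, had -2.51. Among imprinted genes of other regions, Gnas had a log2 fold change of 1.37 and Snrpn, a splicing protein of the Prader-Willi region, of -1.33. Of 9 genes listed here as keepers of imprints 2 were higher and 6 lower at vehicle day 7 than at day 3, beside the same shares of all genes. Zfp57, whose hexamer is marked in the sequences above, averaged 55.0, 47.6 and 59.4 TPM with VB6 at days 3, 5 and 7 and 80.8, 47.7 and 45.9 TPM with vehicle, against 276 TPM in ES cells. Since TPM is shifted between the arms at days 5 and 7, its gaps there are not read as VB6 differences. At day 3 Zfp57 was lower with VB6, by a log2 fold change of -0.51, and by -0.55 corrected. Its partner Trim28, which recruits histone methylation, was also lower with VB6 at day 3, by -0.36, and by -0.20 corrected.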

How the data were processed

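RNA-seq of 21 libraries was taken as deposited. The authors deposited expected counts, that is, estimated counts per gene of which 26.9 to 30.5% of a library's non-zero values were fractional. TPM values came from the authors too, scaled to length and depth, and FPKM, used here only to derive effective lengths. The genome build was mm10, as the submitters' processing notes say; aligner and counting program are not stated in the sources used here. Positions and GC content came from GENCODE M21, where 26830 gene IDs, with 1.92% of the counts, were not found. Groups followed the labels. Expected counts were rounded to whole numbers (a change of 0.00024% in the sum), which the design had assumed to be whole.

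Genes passing filterByExpr were tested with edgeR 4.0.16 (R 4.3.3) by glmQLFit and glmQLFTest over all 21 libraries with TMM, a mean per group and Benjamini-Hochberg adjustment over 18901 genes, called at 0.05. Each SE was taken as the absolute log2 fold change over the root of F. For the corrected values, robust splines of GC content and of log2 effective length had 5 degrees of freedom each. Estimated on genes above a mean CPM of 1, they gave an offset per gene and library for 16790 genes. Fragment length is annotated minus effective length over 578 genes. The code was tested on simulated data. DESeq2 1.42.0, limma 3.58.1 on log2(TPM + 1) and other settings were alternatives. The members, gene lists and tests were chosen with earlier results of these data known. All 9 genes are named, and from each other list up to 6 genes with the smallest p over the 7 groups could be named. Likeness is the Pearson correlation of log2 CPM (prior count 2) over libraries, among named genes above a mean CPM of 1. The promoter motif was fixed by name. No variants were analysed.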

Additional observations from a re-analysis of the deposited data

Results flagged for a closer look

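The difference between VB6 and vehicle was itself tested for a change between days 3, 5 and 7, with edgeR's quasi-likelihood F test in the fit of all 21 libraries, and all 9 genes passed, as did 60% of the 18901 genes tested. The adjusted p was 2.23e-09 for H19, 7.95e-07 for Igf2, 2.26e-05 for Dlk1 and 2.89e-06 for Meg3. It was 0.000275 for Peg3, 1.26e-06 for Peg10, 7.08e-06 for Mest, 1.07e-06 for Grb10 and 1.01e-07 for Cdkn1c. All 9 passed after correction for GC content and length too, where 45% of 16790 genes passed. Mest and Grb10 were lower with VB6 at day 5 and higher at day 7 in every library of the groups and in both fits. The groups with short fragments are on opposite sides at these 2 days, so library properties and the day cannot be told apart.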

How the results depend on the processing

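Of 99 tests of the 9 genes, 83 (limma on log2(TPM + 1)) to 99 (either filter change) kept direction and side of the threshold under each alternative run on all of them. The number of the 9 genes called at day 3 between VB6 and vehicle was 1 by limma on log2(TPM + 1), and 1 to 1 when each library was left out, and at day 7 it was 8 by limma. Over all genes the day 3 count was 804, and 1393 without a filter, 1991 with only the groups compared, 1221 corrected for GC content and length, 277 by limma and 191 to 888 without 1 library. Corrected counts were 6439 at day 5, 4574 at day 7 and 7561 for the change between days, and with the replicate block added 6391, 4525 and 7482.

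Signs turned as follows (log2). Correction gave 0.04 for Peg10 and -0.19 for Cdkn1c at day 5, and 0.10 for Meg3 and 0.35 for Cdkn1c at day 7, and with the block 0.042, -0.19, 0.094 and 0.35. For Grb10 it gave -0.057 at vehicle day 3 over ES, -0.03 at vehicle day 5 over day 3 and -0.11 at VB6 day 3 over ES, with the block -0.057, -0.03 and -0.11. Limma on log2(TPM + 1) gave -0.12 for Peg3 at day 5, 0.28 for Meg3 and 0.27 for Cdkn1c at day 7, -0.081 for Cdkn1c at vehicle day 3 over ES, -0.07 for Grb10 at VB6 day 3 over ES, and 0.16 for Dlk1 and 0.13 for Grb10 at VB6 day 5 over day 3. Mest at VB6 day 5 over day 3 was -0.026 by DESeq2, -0.027 with its size factors, -0.003 with only the groups compared, -0.039 corrected and -0.034 with the block. Leaving out 1 library gave ranges across 0 for H19 (-0.045 to 0.093) and Mest (-0.085 to 0.048) at day 3, Meg3 at day 7 (-0.18 to 0.055) and at VB6 day 7 over day 5 (-0.081 to 0.16), and Mest (-0.068 to 0.065) and Grb10 (-0.066 to 0.009) at VB6 day 5 over day 3. The cause was not tested.

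Replicate numbers paired the libraries weakly if at all. Same-numbered libraries deviated together by correlations of -0.148 to 0.080, and 11 of 21 were closest to their own of the 3 numbers. The replicate block alone reversed no sign, and the counts of the 9 genes called with it were 3, 8 and 6 at days 3, 5 and 7. Leaving out the vehicle day 5 and VB6 day 7 groups, chosen after seeing the data, changed no call among the 5 comparisons that need neither. At 22 to 26 counts per library in vehicle day 5, depth limits Dlk1 most. Counting error alone allows up to 3 counts where a library has 0.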
